A study of Homo sapiens with 6 samples.

Results

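The genes described are those whose symbol starts with NDUF, the nuclear genes named for NADH:ubiquinone oxidoreductase, which is complex I of the mitochondrial respiratory chain. Symbols ending in P and a digit were left out as pseudogenes. The rule took 47 of the 35130 gene names in the deposited tables. Of these, 40 carry the structural prefixes NDUFA, NDUFB, NDUFC, NDUFS and NDUFV, and 7 carry the prefix NDUFAF of the assembly factors. Among the 40 structural names, 37 encode nuclear subunits of complex I, namely 7 core and 30 accessory subunits. The other three are NDUFA4, now assigned to complex IV, its paralog NDUFA4L2, and NDUFC2-KCTD14, a readthrough of neighbouring genes. NDUFAF8 is listed under its older symbol C17orf89, so it lies outside the rule and is described with the other assembly factors.

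Bulk RNA was sequenced from SK-N-BE(2), a human neuroblastoma line with amplified MYCN that the labels assign to bone marrow. Cells in dishes were exposed for 24 h to NEN at 1 µM (3 libraries) or to the solvent DMSO (3 libraries). The labels call the libraries of each group biological replicates, and the study rests on this single line. NEN is not spelled out in the labels; in published work on neuroblastoma it stands for niclosamide ethanolamine, which uncouples respiration from ATP synthesis.

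Complex I takes electrons from NADH in the matrix, passes them along a chain of iron-sulfur clusters to ubiquinone, and pumps protons across the inner membrane. Its core subunits carry the catalysis and are encoded partly in the nucleus and partly in mitochondrial DNA, while the accessory subunits surround and stabilise the core. Assembly factors join the modules of the enzyme and modify single subunits, and are absent from the finished complex.

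Values were TPM (transcript abundances relative to the library total), which are scaled by transcript length and can therefore be set side by side between genes. TPM keeps no read counts, so the sequencing depth is unknown. Between 17285 and 18041 names lay above 0 in each library. All 9 neuroblastoma markers had a mean of at least 1 TPM, and 0 of 6 markers of marrow blood cells did, with HBB, CD3E and MPO at 0. The summed level of 5 stromal markers was 25.6 to 30.2 TPM in the NEN libraries and 15.6 to 20.1 TPM in the DMSO libraries. Most of it came from PDGFRB, with 24.3, 22.5 and 19.3 TPM in the NEN libraries, against 9.27, 8.59 and 12.6 TPM in the DMSO libraries. The other stromal markers, COL1A1, COL1A2, DCN and LUM, overlapped between the groups. The part of these markers in the results was not tested. The summed level of 4 epithelial markers was 4.35 to 9.98 TPM in the NEN libraries and 4.57 to 5.82 TPM in the DMSO libraries. One library stood apart: DMSO replicate 1 held the lowest value of the 6 libraries for 19 of the 47 members, or 40.4%, against 20.6% of all genes tested. For the members whose call it decided, the value without it is given beside the result. In bulk RNA, fewer cells with a transcript and less of it per cell cannot be told apart.

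The subunit genes had higher levels than the assembly factors (plot of levels by class). The median of the mean levels was 240 TPM over the 37 subunits in NEN-treated cells, against 227 TPM in DMSO-treated cells. For the 7 NDUFAF genes it was 42.2 TPM in NEN-treated cells and 49.7 TPM in DMSO-treated cells. Over all 6 libraries the subunits had a median of 233 TPM, with a range of 17.5 to 601 TPM, and the assembly factors one of 46.0 TPM, with a range of 16.4 to 123 TPM. Among the subunits, the 11 accessory subunits of the distal membrane arm had the highest median, 411 TPM, followed by the 9 of the proximal membrane arm with 282 TPM. The 9 accessory subunits of the matrix arm had a median of 120 TPM.

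**Figure D1:**
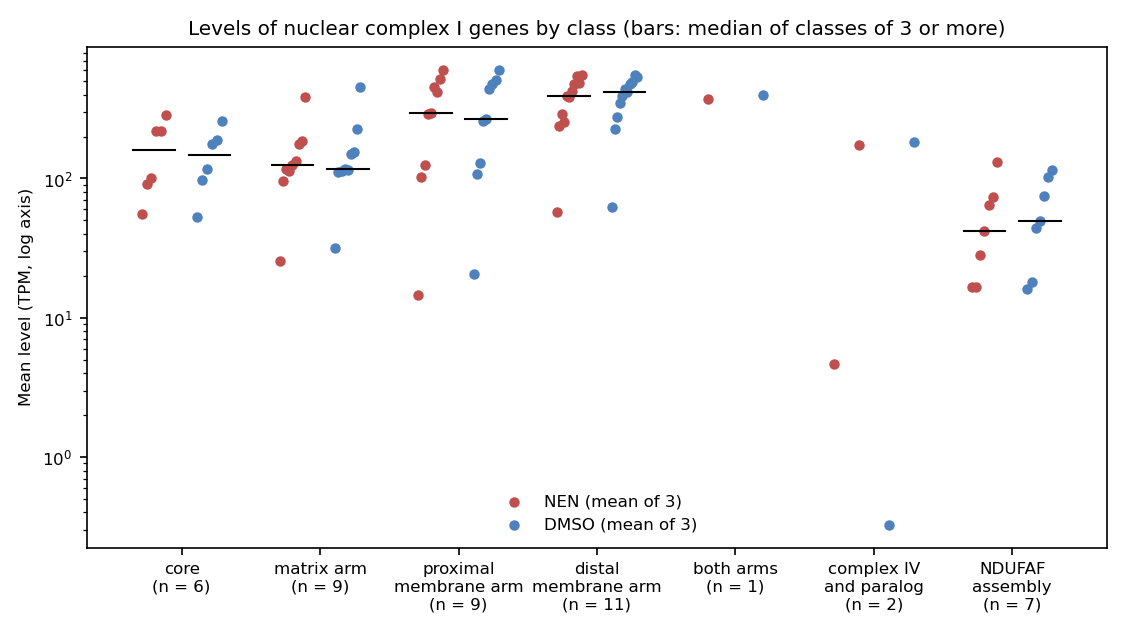
Mean level of each gene shown (1 core subunit is not drawn) on a logarithmic TPM axis, by class, with NEN (red, mean of 3 libraries) left of DMSO (blue) and the class median as a bar. The distal membrane arm genes have the highest medians and the NDUFAF genes the lowest of the classes with a bar, and the single point under 1 TPM is NDUFA4L2 in DMSO-treated cells.

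The 3 highest members were NDUFS5, NDUFB11 and NDUFB9, all accessory subunits of the membrane arm. NDUFS5 stood at 605, 584 and 609 TPM in the NEN libraries, against 607, 604 and 600.3 TPM in the DMSO libraries, a difference of -0.01 ± 0.04 (95% interval -0.12 to 0.09). NDUFB11 stood at 536, 553 and 558 TPM in the NEN libraries, against 554, 517 and 527 TPM in the DMSO libraries, a difference of 0.04 ± 0.05 (95% interval -0.07 to 0.16). For both genes the groups overlapped, and the intervals leave room for only small differences either way; both signs turned with the processing. NDUFB9 stood at 486, 506 and 469 TPM in the NEN libraries, against 516, 556 and 585 TPM in the DMSO libraries, all NEN libraries below all DMSO libraries, with a difference of -0.18 ± 0.06 and adjusted p = 0.0666 by limma; it passed without DMSO replicate 1, with -0.23 and adjusted p = 0.0175.

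At the other end, the 3 lowest members were NDUFA4L2, NDUFC2-KCTD14 and NDUFAF7. NDUFA4L2 averaged 2.499 TPM over the 6 libraries and passed the filter of a mean of 1 TPM only through the NEN libraries. The next lowest, NDUFC2-KCTD14, averaged 14.2 TPM, so no other member lay near that filter and all 47 were tested.

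The design holds a single comparison, of cells given NEN with cells given DMSO. Each difference is the NEN mean minus the DMSO mean of log2(TPM + 1) and is given ± SE with p-values from limma adjusted by the Benjamini-Hochberg method over all 12576 genes tested; the scale understates the change of low genes. Group levels are means ± SD with n = 3 each. Of the 47 members, 8 passed the threshold of 0.05, a share of 17.02%, against 30.0% of all genes tested. The members that rose were 2, NDUFA4L2 and NDUFS7, where 13.5% of all genes tested rose. The 6 that fell were NDUFA12, NDUFV2, NDUFAF3, NDUFAF4, NDUFAF5 and NDUFAF6, where 16.5% of all genes tested fell. The split changed with the scaling: 2 rose and 2 fell after median-ratio scaling, and 3 rose and 2 fell after quantile normalization. After correction for transcript length and GC content 5 rose and 4 fell, and NDUFA4L2, NDUFAF3 and NDUFAF6 were the only 3 of the 8 calls shared with it. In 16 of the 47 members, or 34.0%, the NEN and DMSO libraries did not overlap, 6 with NEN higher and 10 with NEN lower, against 46.8% of all genes tested.

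The calls are set out by class in the plot of fold changes. Of the 37 subunits, 1 rose and 2 fell, a share of 8.11%, with a median difference of -0.01 and a range of -0.45 to 0.30. Of all genes tested 30.0% were called, and their median was -0.02. Of the 7 NDUFAF genes, 0 rose and 4 fell, a share of 57.1%, with a median of -0.21. Of all genes tested 16.5% fell. The interval of the difference lay within 1.5-fold either way for 33 of the 37 subunits, or 89.2%, against 46.3% of all genes tested. The other subunits were NDUFA1, NDUFA3, NDUFA6 and NDUFB1. The genes tested reach down to a mean of 1 TPM, while the subunits had a median of 233 TPM, and genes of like level were not compared. Only 1 of the 4 NDUFAF calls, that of NDUFAF6, was kept under every alternative tried, and the count of 4 fell to 1 or 2 under 13 of the 16.

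**Figure D2:**
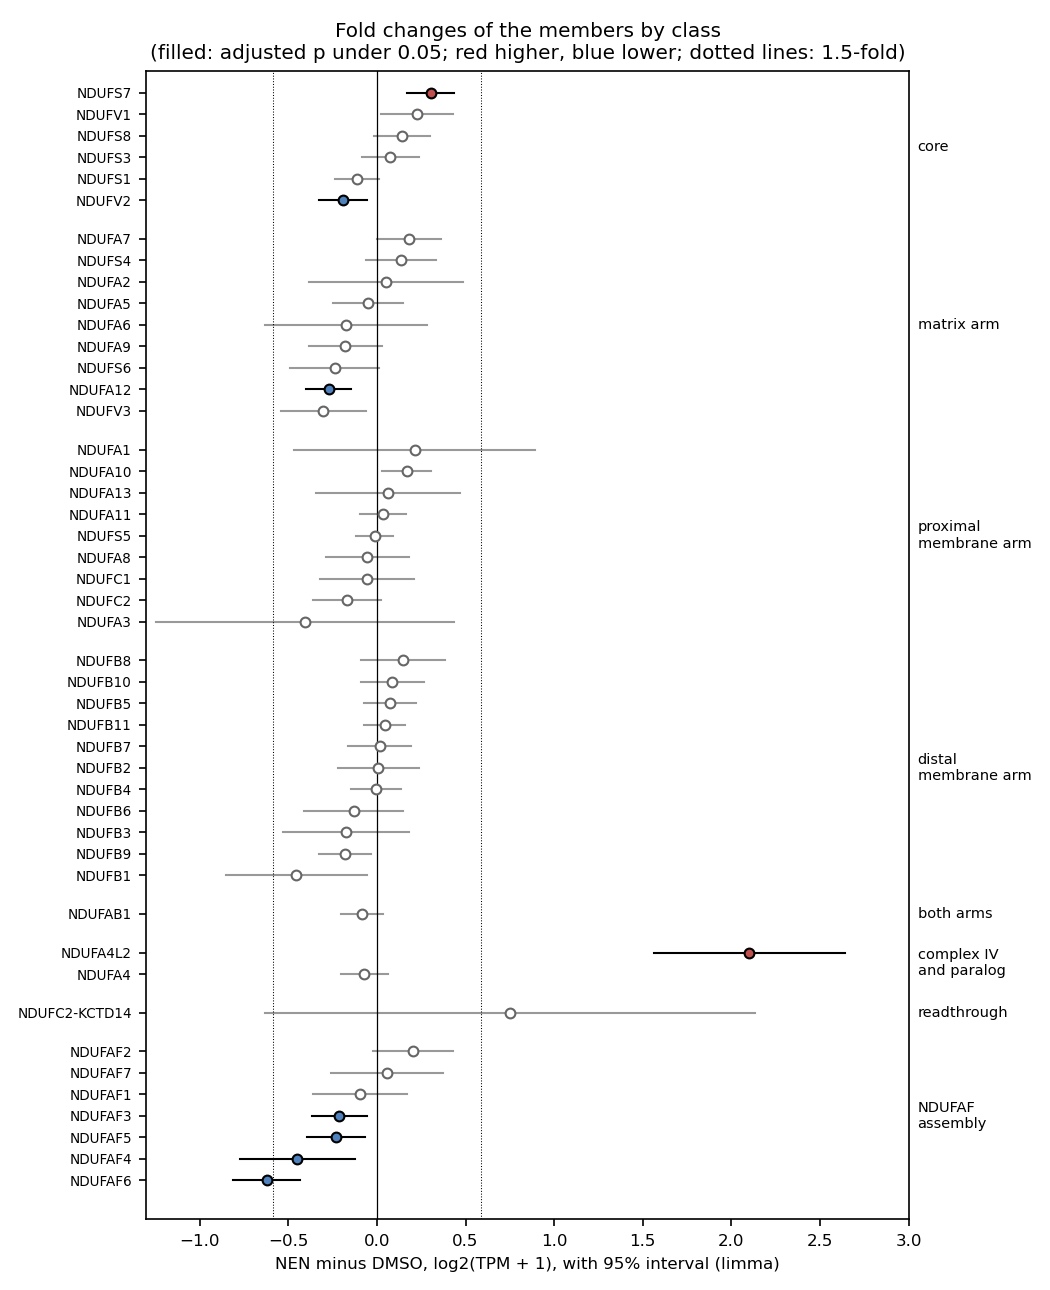
Difference of each member shown (1 core subunit is not drawn; NEN minus DMSO, log2(TPM + 1), point) with its 95% interval from limma, grouped by class, with filled points past an adjusted p of 0.05 and dotted lines at 1.5-fold. The subunits lie between -0.45 and 0.30, while NDUFA4L2 lies at 2.10 and 4 NDUFAF genes lie between -0.62 and -0.21.

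The core subunits of the matrix arm carry the route of electrons. Of these 7, 1 rose and 1 fell, a share of 28.6%, against 30.0% of all genes tested. NDUFS7, which holds the last iron-sulfur cluster before ubiquinone, had 212, 229.7 and 217 TPM in the NEN libraries, against 170.2, 183 and 180.4 TPM in the DMSO libraries. Every NEN library lay above every DMSO library. The group levels were 219.6 ± 9.10 TPM in NEN-treated cells and 178 ± 6.57 TPM in DMSO-treated cells, a rise of 0.30 ± 0.06 (adjusted p = 0.00717). After correction for transcript length and GC content the difference was 0.04 and the call was lost (adjusted p = 0.572). NDUFS7 shares exons with annotated antisense genes, and without a stated strand their reads cannot be told apart.

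NDUFV2, which carries an iron-sulfur cluster next to the NADH site, had 98.6, 101 and 104 TPM in the NEN libraries, against 117, 120.2 and 111 TPM in the DMSO libraries. Every NEN library lay below every DMSO library, by a narrow gap. It averaged 101 ± 2.96 TPM in NEN-treated cells and 116 ± 4.83 TPM in DMSO-treated cells and fell by 0.19 ± 0.06 (adjusted p = 0.0419). The call was kept under 4 of 16 alternatives. It was lost when any single library but DMSO replicate 3 was left out, with adjusted p = 0.0656 by limma without DMSO replicate 1. A pseudogene name, NDUFV2P1, is also listed and could share reads with NDUFV2.

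NDUFV1, which binds NADH and the flavin, had 222, 212 and 221 TPM in the NEN libraries, against 164, 193 and 206 TPM in the DMSO libraries. Its groups did not overlap, with NEN higher, but the difference of 0.23 ± 0.09 did not pass (adjusted p = 0.0915). It was 0.13 (adjusted p = 0.105) without DMSO replicate 1, 0.30 (adjusted p = 0.0478) without DMSO replicate 3 and 0.07 after length and GC correction. NDUFS1, the largest iron-sulfur subunit, had 92.8, 88.8 and 90.9 TPM in the NEN libraries, against 98.9, 96.1 and 99.4 TPM in the DMSO libraries, again without overlap, with NEN lower, and a difference of -0.11 ± 0.05 (adjusted p = 0.156).

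In NDUFS8 and NDUFS3 the libraries overlapped between the groups. NDUFS8, an iron-sulfur subunit, averaged 286 ± 11.5 TPM in NEN-treated cells and 259.6 ± 20.1 TPM in DMSO-treated cells, a difference of 0.14 ± 0.07 (adjusted p = 0.155). It passed without DMSO replicate 1, with 0.21 and adjusted p = 0.0239, and turned to -0.06 after length and GC correction. NDUFS3, one of the first subunits to assemble, averaged 55.5 ± 2.47 TPM in NEN-treated cells and 52.6 ± 2.37 TPM in DMSO-treated cells, a difference of 0.08 ± 0.07 with a 95% interval of -0.09 to 0.24.

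Of the 9 accessory subunits of the matrix arm 0 rose and 1 fell, a share of 11.1% against 30.0% of all genes tested. The median over the 9 was -0.17. NDUFA12, which sits on the matrix arm and is the paralog of the assembly factor NDUFAF2, had 180.4, 197 and 181 TPM in the NEN libraries, against 219, 229 and 227 TPM in the DMSO libraries. Every NEN library lay below every DMSO library. It averaged 186 ± 9.10 TPM in NEN-treated cells and 225 ± 5.19 TPM in DMSO-treated cells and fell by 0.27 ± 0.06 (adjusted p = 0.0101); after length and GC correction the difference was -0.13 and the call was lost (adjusted p = 0.109). NDUFV3, a small subunit near the NADH site, had 26.9, 21.98 and 27.5 TPM in the NEN libraries, against 32.4, 30.2 and 31.8 TPM in the DMSO libraries, without overlap, and a difference of -0.30 ± 0.10 (adjusted p = 0.0619). NDUFA7, a small subunit, had 181, 188 and 158 TPM in the NEN libraries, against 148, 154 and 162 TPM in the DMSO libraries, with overlap and a difference of 0.18 ± 0.08 (adjusted p = 0.122; it passed without NEN replicate 3, with 0.25 and adjusted p = 0.0479). The 9 genes held values on both sides of 0, 3 above and 6 below. NDUFA9, a dehydrogenase-related subunit near the ubiquinone site, had 119, 132 and 149 TPM in the NEN libraries, against 158, 148 and 146 TPM in the DMSO libraries, with overlap and a difference of -0.18 ± 0.09 (adjusted p = 0.17). NDUFS4, whose loss causes Leigh syndrome, had 127, 122 and 127 TPM in the NEN libraries, against 100.2, 122 and 122 TPM in the DMSO libraries, with NEN higher by a margin under 1 TPM, and a difference of 0.14 ± 0.08 (adjusted p = 0.27). It was 0.04 without DMSO replicate 1, and passed after length and GC correction with 0.27 (adjusted p = 0.0199).

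Of the 20 accessory subunits of the membrane arm, 9 proximal and 11 distal, 0 passed in either direction, against 30.0% of all genes tested. The proximal median was -0.01 and the distal median 0.01. NDUFA10, a proximal subunit related to nucleoside kinases, had 287, 285 and 298 TPM in the NEN libraries, against 243, 256 and 275 TPM in the DMSO libraries, without overlap, and a difference of 0.17 ± 0.06 (adjusted p = 0.0688). It passed as higher in 4 of the 16 alternatives, with 0.24 after quantile normalization, 0.23 after length and GC correction and 0.22 without DMSO replicate 3. NDUFA11, a proximal subunit with membrane helices, averaged 451 ± 6.90 TPM in NEN-treated cells and 441 ± 24.99 TPM in DMSO-treated cells, a difference of 0.03 ± 0.06 with a 95% interval of -0.10 to 0.16. NDUFB8, a distal subunit often used as a protein marker of the assembled enzyme, had 533, 560.3 and 527 TPM in the NEN libraries, against 413, 511 and 549 TPM in the DMSO libraries, with overlap and a difference of 0.15 ± 0.10 (95% interval -0.09 to 0.39). These intervals hold 0 and reach at most 0.39; NDUFA11 changed sign to -0.15 after length and GC correction, and NDUFB8 was 0.03 without DMSO replicate 1. NDUFB1, a small distal subunit, had 201, 267 and 299 TPM in the NEN libraries, against 286, 358 and 405 TPM in the DMSO libraries, with overlap, and the largest negative difference among the subunits, -0.45 ± 0.17 (adjusted p = 0.0844). It passed without DMSO replicate 1, with -0.59 and adjusted p = 0.0377. NDUFC2, a proximal subunit, had 437, 422 and 404 TPM in the NEN libraries, against 419, 509.7 and 496 TPM in the DMSO libraries, with overlap and a difference of -0.17 ± 0.08 (adjusted p = 0.161). It too passed without DMSO replicate 1, with -0.26 and adjusted p = 0.0106. NDUFA3, the lowest subunit at 17.5 TPM, had 17.2, 16.5 and 9.77 TPM in the NEN libraries, against 21.8, 29.1 and 10.6 TPM in the DMSO libraries, and its libraries spread so widely that its interval ran from -1.25 to 0.44. A pseudogene name, NDUFA3P1, stood at 4.18 TPM in NEN replicate 1 and 5.08 TPM in DMSO replicate 1 and could share reads with NDUFA3. NDUFAB1, the mitochondrial acyl carrier protein that sits in both arms, had 379, 357 and 388 TPM in the NEN libraries, against 402, 395 and 393 TPM in the DMSO libraries, without overlap, and a difference of -0.08 ± 0.05 (adjusted p = 0.26).

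The structural names outside complex I included the member with the largest difference. NDUFA4L2, a target of hypoxia-inducible factor reported to lower complex I activity, had 4.26, 4.12 and 5.64 TPM in the NEN libraries, against 0.0711, 0.406 and 0.500 TPM in the DMSO libraries. Every NEN library lay far above every DMSO library, all of which were under 1 TPM. It averaged 4.67 ± 0.840 TPM in NEN-treated cells and 0.326 ± 0.226 TPM in DMSO-treated cells, a ratio of means of 14.3, and rose by 2.10 ± 0.23 on the log2(TPM + 1) scale (adjusted p = 0.00114). The size depends on the pseudocount, 3.66 with 0.1 and 0.86 with 5. NDUFA4L2 passed the filter of a mean of 1 TPM only through the NEN libraries, so its entry among the genes tested rests on the group where it is high. The call was kept in all 15 alternatives that tested it, and the filter of a mean of 5 TPM left it out. NDUFA4L2 shares 33 exonic bases with SHMT2 on the opposite strand, a far more abundant gene that averaged 214 TPM in NEN-treated cells and 170.4 TPM in DMSO-treated cells. NDUFA4, its abundant paralog, had 168, 176 and 179 TPM in the NEN libraries, against 174, 186 and 189 TPM in the DMSO libraries, with overlap and a difference of -0.07 ± 0.06 (95% interval -0.20 to 0.06). NDUFC2-KCTD14 had 17.1, 22.9 and 10.6 TPM in the NEN libraries, against 2.71, 14.9 and 16.9 TPM in the DMSO libraries, a spread too wide for a direction, and shares 431 exonic bases with NDUFC2.

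**Figure D3:**
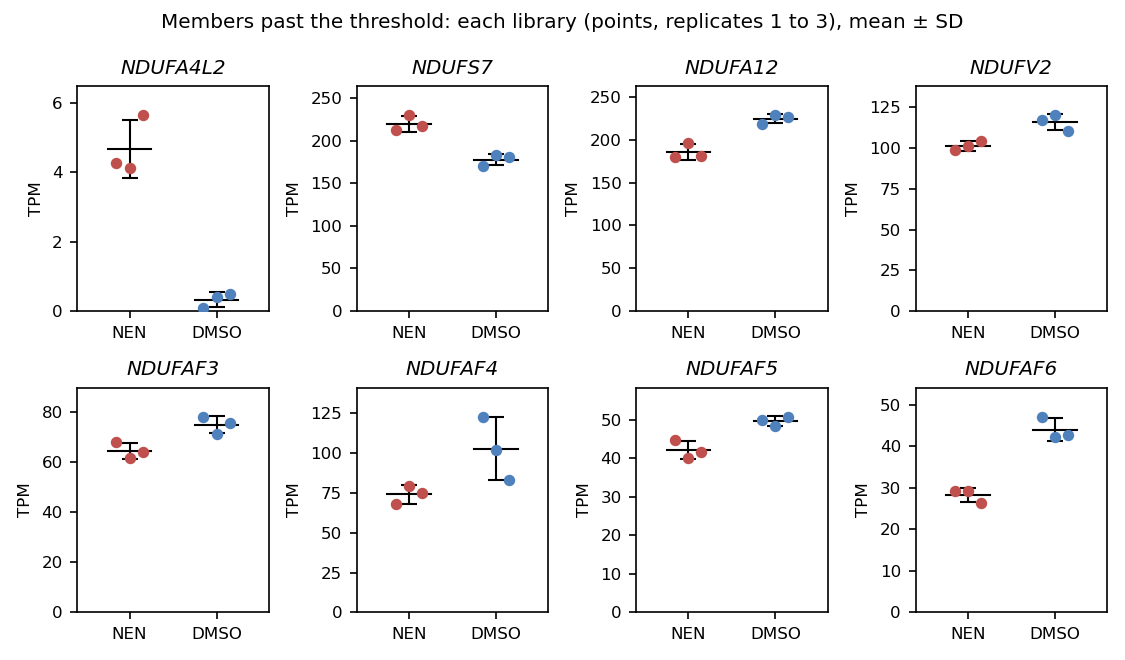
TPM of the 8 members that passed the threshold, with each library as a point (NEN red, left; DMSO blue, right), the mean as a bar and the SD as whiskers, on axes that start at 0. NEN and DMSO libraries do not overlap in any of the 8 panels, with NEN higher for NDUFA4L2 and NDUFS7 and lower for the other 6.

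The NDUFAF factors act at different steps of assembly. NDUFAF6, a mitochondrial protein related to squalene and phytoene synthases that is needed for an early membrane module, had 29.2, 29.1 and 26.3 TPM in the NEN libraries, against 47.04, 42.1 and 42.7 TPM in the DMSO libraries. The groups were well separated. It averaged 28.2 ± 1.67 TPM in NEN-treated cells and 43.9 ± 2.70 TPM in DMSO-treated cells and fell by 0.62 ± 0.08 (adjusted p = 0.00214), with a range of -0.65 to -0.52 over the 16 alternatives, all past the threshold.

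NDUFAF3 and NDUFAF4 form a pair that works on the module holding the ubiquinone site. NDUFAF4 had 67.9, 79.5 and 74.8 TPM in the NEN libraries, against 123, 102 and 82.9 TPM in the DMSO libraries. DMSO replicate 1 was the highest of the 6 and DMSO replicate 3 lay close to the NEN libraries. NDUFAF4 averaged 74.1 ± 5.85 TPM in NEN-treated cells and 102 ± 19.8 TPM in DMSO-treated cells and fell by 0.45 ± 0.14 (adjusted p = 0.0453), with 0.31 in size and adjusted p = 0.0776 without DMSO replicate 1 and 0.59 with adjusted p = 0.0140 without DMSO replicate 3. Over the 6 fits with 1 library left out, its adjusted p by limma reached 0.131, and it passed only without DMSO replicate 3. NDUFAF3 had 68.1, 61.8 and 64.2 TPM in the NEN libraries, against 78.2, 71.5 and 75.6 TPM in the DMSO libraries, without overlap, and fell by 0.21 ± 0.07 (adjusted p = 0.0487). NDUFAF3 shares 527 exonic bases with DALRD3 on the opposite strand, which averaged 17.2 TPM in NEN-treated cells and 12.1 TPM in DMSO-treated cells.

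NDUFAF5, which hydroxylates an arginine of NDUFS7, had 44.8, 40.1 and 41.7 TPM in the NEN libraries, against 50.03, 48.3 and 50.7 TPM in the DMSO libraries. Every NEN library lay below every DMSO library. It averaged 42.2 ± 2.37 TPM in NEN-treated cells and 49.7 ± 1.24 TPM in DMSO-treated cells and fell by 0.23 ± 0.07 (adjusted p = 0.0423), while its substrate NDUFS7 was among the members that rose. After length and GC correction neither was called, and NDUFAF5 stood at -0.10 (adjusted p = 0.310). The calls of NDUFAF3, NDUFAF4 and NDUFAF5 were kept under 5, 4 and 4 of the 16 alternatives. Without DMSO replicate 1, NDUFAF3 was at -0.18 (adjusted p = 0.0960) and NDUFAF5 at -0.23 (adjusted p = 0.0741). Over the 6 fits with 1 library left out, adjusted p by limma ran from 0.0609 to 0.148 for NDUFAF3. For NDUFAF5 it ran from 0.0486 to 0.131, under the threshold only without NEN replicate 1.

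The other three NDUFAF genes did not pass. NDUFAF2, the chaperone that gives way to its paralog NDUFA12 late in assembly, had 135, 130.1 and 131 TPM in the NEN libraries, against 97.9, 126 and 121 TPM in the DMSO libraries, with every NEN library above every DMSO library and a difference of 0.20 ± 0.10 (adjusted p = 0.155). It was 0.09 (adjusted p = 0.221) without DMSO replicate 1, and passed after length and GC correction with 0.35 (adjusted p = 0.0114). NDUFAF1, a member of the complex that builds the membrane arm, had 16.1, 17.5 and 16.4 TPM in the NEN libraries, against 15.3, 19.4 and 19.2 TPM in the DMSO libraries, with overlap and a difference of -0.10 ± 0.11 (95% interval -0.36 to 0.17). NDUFAF7, a methyltransferase of the mitochondrial matrix, had 17.7, 14.1 and 18.4 TPM in the NEN libraries, against 15.04, 18.3 and 14.7 TPM in the DMSO libraries, with overlap and a difference of 0.06 ± 0.14 (95% interval -0.26 to 0.38). PRKD3, on the opposite strand, shares 265 exonic bases with it.

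Promoter windows of GRCh38.p14 from RefSeq, 250 bases before and 50 after each annotated start, were found for 39 of the 47 members, in 49 windows. They were searched on both strands for NRF1 (GCATGCGC), ETS family or GABP (CCGGAAG), E-box (CACGTG) and YY1 (AAGATGGCG) letters, motifs known from genes of oxidative phosphorylation. NRF1 letters stood in 8 members, or 20.5%, against 3.053% of all 35116 windows. YY1 letters stood in 6 members (15.4%, against 1.75% of windows), ETS letters in 6 (15.4%, against 10.3%) and E-box letters in 4 (10.3%, against 7.26%). The member shares count genes and the other shares count windows, so they are not like for like. By window, the matches lay in 8 (NRF1), 6 (YY1), 6 (ETS) and 4 (E-box) of the 49 member windows. The members with NRF1 letters were NDUFA5, NDUFA6, NDUFA8, NDUFAF4, NDUFAF5, NDUFB4, NDUFS6 and NDUFS7. Of these 8, NDUFS7 rose, NDUFAF4 and NDUFAF5 fell and the others did not pass, where 30.0% of all genes tested were called. These 3 calls were lost after correction for transcript length and GC content. The windows of these 3 are shown because they hold the same letters beside opposite directions, with the NRF1 letters in capitals and the gene's own strand given 5′ to 3′. A match describes these letters and says nothing of binding. NDUFS7 lies at chr19:1383657-1383956 (+ strand), with the match starting at base -73 from the start, and its window also holds E-box and YY1 letters apart from it.
NDUFS7: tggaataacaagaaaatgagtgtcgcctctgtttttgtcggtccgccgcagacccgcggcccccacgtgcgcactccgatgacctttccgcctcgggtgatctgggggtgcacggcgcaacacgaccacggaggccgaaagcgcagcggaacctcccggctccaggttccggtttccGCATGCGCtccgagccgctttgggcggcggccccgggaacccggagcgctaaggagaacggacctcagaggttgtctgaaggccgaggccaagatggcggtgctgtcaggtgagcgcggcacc
NDUFAF4 lies at chr6:96897842-96898141 (- strand), with the reverse complement of the motif starting at base 7 after the start, and ETS letters apart from it.
NDUFAF4: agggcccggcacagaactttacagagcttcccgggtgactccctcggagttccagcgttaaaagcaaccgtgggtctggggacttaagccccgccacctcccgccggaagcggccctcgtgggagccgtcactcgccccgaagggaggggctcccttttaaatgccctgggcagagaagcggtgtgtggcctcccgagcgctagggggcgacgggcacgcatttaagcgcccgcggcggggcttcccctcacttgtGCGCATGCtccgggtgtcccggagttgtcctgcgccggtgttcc
NDUFAF5 lies at chr20:13784778-13785077 (+ strand), where a match on each strand overlaps the other in 1 run, starting at bases -4 and -2 from the start, and E-box letters stand apart from it.
NDUFAF5: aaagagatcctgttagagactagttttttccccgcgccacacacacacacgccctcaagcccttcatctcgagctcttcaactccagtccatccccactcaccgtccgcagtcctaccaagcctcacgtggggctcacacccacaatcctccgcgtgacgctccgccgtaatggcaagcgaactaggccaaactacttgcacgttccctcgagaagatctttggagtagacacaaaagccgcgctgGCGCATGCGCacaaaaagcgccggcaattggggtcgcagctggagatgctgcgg

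The other complex I genes were read from a list of 12 assembly factors without the NDUFAF prefix and the 7 mRNAs encoded by mitochondrial DNA. Of the 12 assembly factors, 1 rose and 4 fell, or 41.7%, with a median of -0.07, where 30.0% of all genes tested were called. ECSIT, a scaffold of the membrane arm assembly complex that also acts in innate immune signalling, had 140.5, 133 and 138 TPM in the NEN libraries, against 80.6, 86.4 and 90.5 TPM in the DMSO libraries, without overlap, and rose by 0.67 ± 0.06 (adjusted p = 0.000663). ACAD9, its flavoprotein partner, had 33.6, 35.7 and 32.0 TPM in the NEN libraries, against 49.2, 45.4 and 48.2 TPM in the DMSO libraries, without overlap, and fell by 0.48 ± 0.07 (adjusted p = 0.00372). These partners moved in opposite directions. TMEM126B, a membrane partner in the same complex, averaged 51.3 ± 5.42 TPM in NEN-treated cells and 71.2 ± 11.8 TPM in DMSO-treated cells, without overlap, and fell by 0.46 ± 0.13 (adjusted p = 0.0323). COA1, another partner, averaged 75.8 ± 1.86 TPM in NEN-treated cells and 87.5 ± 0.864 TPM in DMSO-treated cells, without overlap, and fell by 0.20 ± 0.05 (adjusted p = 0.0265). With NDUFAF1 not past the threshold, the measured members of that assembly complex held calls in both directions.

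TMEM70, needed for ATP synthase as well as complex I assembly, had 26.1, 27.1 and 25.4 TPM in the NEN libraries, against 46.5, 41.8 and 38.6 TPM in the DMSO libraries, without overlap, and fell by 0.67 ± 0.09 (adjusted p = 0.00219). NDUFAF8, which stabilises NDUFAF5, had 187, 171 and 155 TPM in the NEN libraries, against 224, 222 and 223 TPM in the DMSO libraries under its older symbol, without overlap, and fell by 0.39 ± 0.07 (adjusted p = 0.00763). Counted with it, 5 of the 8 factors NDUFAF1 to NDUFAF8 fell and 0 rose, where 16.5% of all genes tested fell; the calls of NDUFAF3, NDUFAF4 and NDUFAF5 among them were the ones kept in 5 or fewer of the 16 alternatives. The 7 factors TIMMDC1, TMEM186, FOXRED1, NUBPL, TMEM126A, DMAC1 and DMAC2 did not pass, with differences between -0.24 and 0.48. The calls of ECSIT, ACAD9 and TMEM70 were kept in all 16 alternatives and that of NDUFAF8 in all 14 that tested it. The length and GC correction, with or without the replicate block, did not test NDUFAF8. TMEM126B kept its call in 9 of 16 and COA1 in 6.

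Of the 7 mitochondrially encoded subunit mRNAs 0 rose and 4 fell, with a median of -0.41, where 16.5% of all genes tested fell. MT-ND1, the subunit that holds part of the ubiquinone channel, fell by 0.73 ± 0.09 (adjusted p = 0.00176), and MT-ND2, a proton-pumping subunit, by 0.73 ± 0.12 (adjusted p = 0.00419). MT-ND5 and MT-ND6 fell by 0.41 ± 0.09 and 0.41 ± 0.11 (adjusted p = 0.0113 and 0.0285). The call of MT-ND6 was kept under 8 of the 16 alternatives. DMSO replicate 1 was the highest of the 6 libraries for MT-ND1, MT-ND2, MT-ND4, MT-ND4L, MT-ND5 and MT-ND6. It was the lowest for MT-ND3. Without it the differences of MT-ND1 and MT-ND2 were -0.63 and -0.61 (adjusted p by limma = 0.00112 and 0.00495). Those of MT-ND5 and MT-ND6 were then -0.32 and -0.28 (adjusted p by limma = 0.00485 and 0.0109). The differences of MT-ND3, MT-ND4 and MT-ND4L lay between -0.17 and -0.07 and did not pass. MT-ND4 had 4286, 4560 and 4653 TPM in the NEN libraries, against 6209, 4212 and 4166 TPM in the DMSO libraries. Library preparation may have used polyA capture or rRNA removal, and the labels do not say which.

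**Figure D4:**
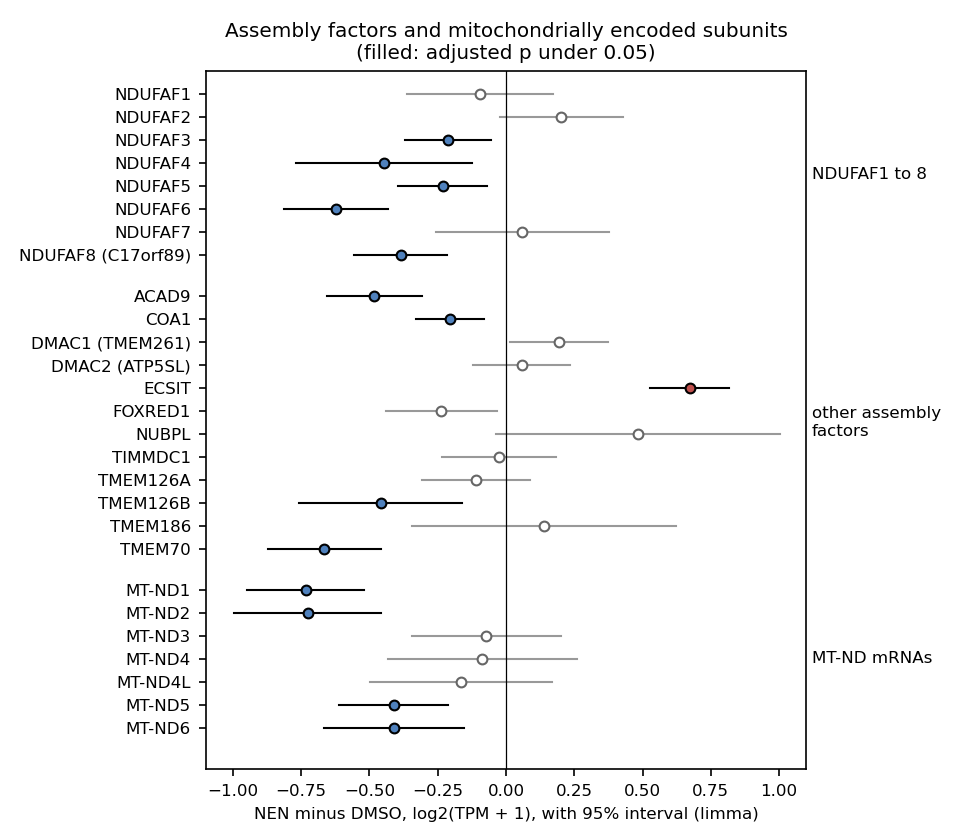
Difference of each complex I assembly factor and mitochondrially encoded subunit mRNA (NEN minus DMSO, log2(TPM + 1), point) with its 95% interval from limma; filled points passed an adjusted p of 0.05. ECSIT at 0.67 is the only filled point above 0, and TMEM70 and NDUFAF6 lie lowest among the assembly factors at -0.67 and -0.62.

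Summed over genes, the 37 subunits made up 9545, 10038 and 9681 TPM in the NEN libraries, against 9008, 10220 and 10501 TPM in the DMSO libraries. These overlapped, with DMSO replicate 1 the lowest of all 6. The 7 NDUFAF genes summed to 379, 372.4 and 372.4 TPM in the NEN libraries, against 426, 428 and 407 TPM in the DMSO libraries, without overlap. The ratio of the sums was 25.2, 27.0 and 26.0 in the NEN libraries, against 21.1, 23.9 and 25.8 in the DMSO libraries, and the ranges overlapped because of DMSO replicate 3.

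DMSO replicate 1 stood apart for the subunits. It held the lowest value of its 3 libraries for 24 of the 37 subunits, or 64.9%, against 38.5% of all genes tested. Relative to the mean of DMSO replicates 2 and 3, it had a median of 0.860 for the 18 subunits with a transcript under 766 bases and 0.916 for the 19 others, against 0.988 for all genes tested and 0.914 for 648 other genes under that length. NDUFA1, a proximal membrane subunit, stood at 285, 351 and 250.99 TPM in the NEN libraries, against 153, 308 and 342 TPM in the DMSO libraries, with DMSO replicate 1 at less than any other library. Among the subunits, 5 varied by over 1.5-fold within the DMSO libraries, of which 3 had DMSO replicate 1 as the lowest, and 1 within the NEN libraries. NDUFA13, also known as GRIM-19, stood at 478, 563 and 515 TPM in the NEN libraries, against 368, 549 and 601 TPM in the DMSO libraries, again with DMSO replicate 1 the lowest. Without it the differences, which had not passed, changed sign to -0.15 for both genes. NDUFB3, a distal membrane subunit, stood at 344, 426 and 382 TPM in the NEN libraries, against 337, 488 and 487 TPM in the DMSO libraries, and NDUFS6, a zinc-binding matrix arm subunit, at 340.3, 408 and 409 TPM in the NEN libraries, against 397, 466 and 503 TPM in the DMSO libraries. In both, the overlap between the groups came from DMSO replicate 1, and both were called lower in NEN-treated cells without it, with -0.35 for NDUFB3 (-0.17 with it) and -0.33 for NDUFS6 (-0.24 with it). Without DMSO replicate 1, 10 of the 47 members were called, 3 that rose and 7 that fell. Of the 12580 genes tested in that fit, 3468 were called, 1554 that rose and 1914 that fell. The median over the 37 subunits was then -0.10, against -0.03 over all genes tested, and NDUFAF6 was the only NDUFAF gene called.

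**Figure D5:**
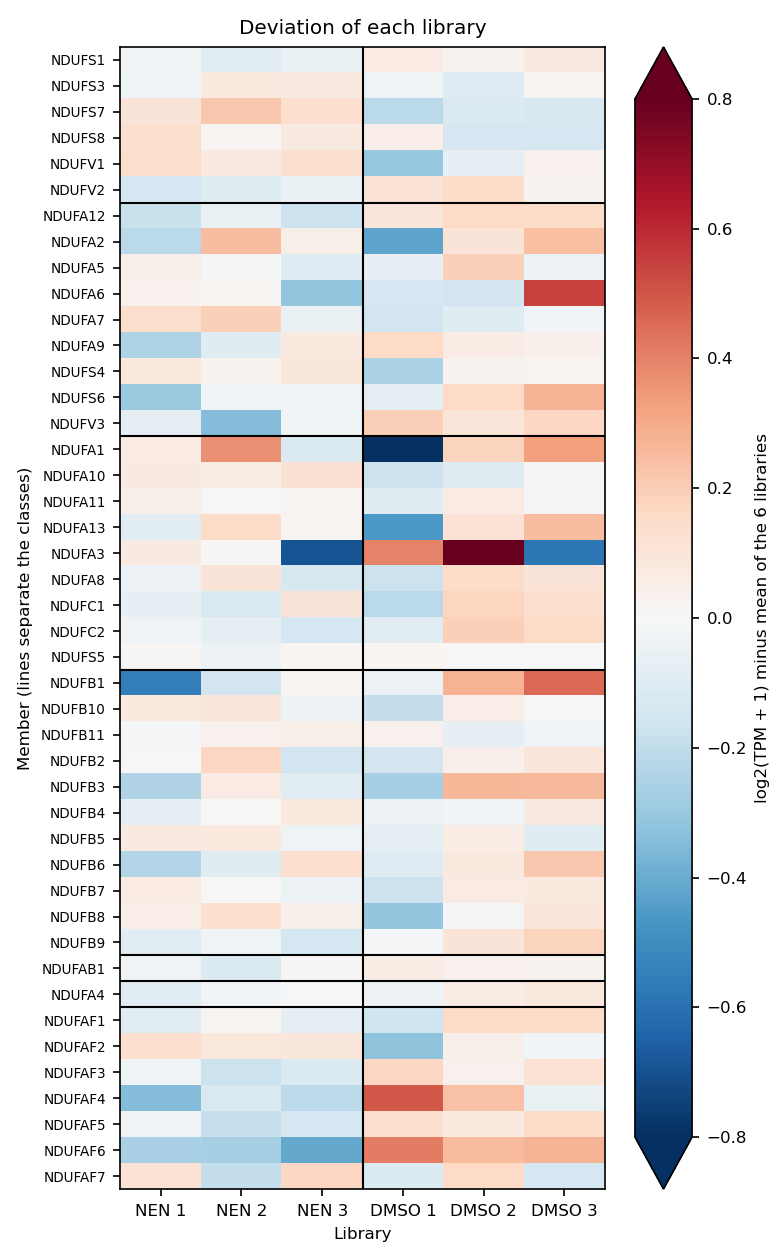
Each row is a member (1 core subunit is not drawn) and each column a library, NEN left of DMSO, with the colour giving log2(TPM + 1) minus the mean of the 6 libraries; NDUFA4L2 and NDUFC2-KCTD14 are left out for scale. DMSO replicate 1 is blue in many subunit rows, such as NDUFA1 and NDUFA13, and red for NDUFAF4 and NDUFAF6, while the NDUFAF6 row is blue in all 3 NEN libraries.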

How the data were processed

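RNA-seq of SK-N-BE(2) cells (3 NEN and 3 DMSO libraries, grouped by the treatment in the labels) was used as the authors deposited it, as TPM per gene name. Reads were quantified with kallisto and the build named is hg19, per the submitters' processing notes; the version and the strandedness are not stated there. Listed names sum to 929054 to 933500 TPM per library, and 27 names look like dates. TPM holds no counts, so depth and counting error are unknown.

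The filter kept 12576 genes whose mean reached 1 TPM, and limma 3.58.1 in R 4.3.3 was fitted to log2(TPM + 1) with group alone and trend and robust settings, with two-sided tests. P-values were adjusted over the whole table by Benjamini-Hochberg, and 0.05 was the threshold. P-values set each difference against the spread between these libraries, which limma moderates with that of all genes tested.

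The members and lists were chosen with earlier results of these data known. Named genes were members past the threshold, all NDUFAF genes, core subunits, NDUFA4, NDUFA4L2, NDUFAB1, the 3 highest and 3 lowest members, those nearest the filter, and other complex I genes past the threshold; NDUFV3, NDUFS4, NDUFA10, NDUFB1, NDUFA1, NDUFA3, NDUFA7, NDUFA9, NDUFA11, NDUFA13, NDUFB3, NDUFB8, NDUFC2 and NDUFS6 were added after their values were seen. The values of 1 core subunit are not reported here. The code was tested on simulated data. Transcript lengths, GC content and exon overlaps came from GENCODE release 29. That annotation is on another build, so none of its coordinates were used. Older symbols were matched through RefSeq synonyms. The 16 alternatives comprised a replicate block, other filters, scalings, pseudocounts and limma settings, a loess correction for length and GC, and leaving out each library.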

Additional observations from a re-analysis of the deposited data

How the results depend on the processing

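Over the 16 alternatives, 45 complex I genes given values of their own kept direction and call in 600 of 717 gene and setting pairs. In the others, 77 lost a call, 21 gained one and 19 changed sign, and the cause was not tested. The 600 include genes without a call that stayed without one, so they overstate how well the calls held. Only NDUFA4L2 and NDUFAF6, 2 of the 8 members called, passed in every alternative that tested them. The count of members called, 8, was 4 without a filter, 4 after median-ratio scaling, 5 after quantile normalization, 4 with limma without trend and robust settings, and 4 to 10 when each library was left out. The count of NDUFAF genes that fell, 4, was 1 with the replicate block, without a filter, after median-ratio scaling, after quantile normalization and with plain limma, 2 after length and GC correction with or without the block, and 1 to 2 when each library was left out. The median of the structural genes, 0.00, ran from -0.084 to 0.036 when each library was left out. That of the NDUFAF genes, -0.21, was -0.13 after quantile normalization, -0.10 after length and GC correction with or without the block, and -0.25 to -0.18 when each library was left out. Sign changes concerned genes with no call: NDUFA4 was 0.099, NDUFB11 -0.061, NDUFS5 0.036, NDUFS8 -0.064, NDUFA11 -0.15 and NDUFA13 -0.14 after length and GC correction with or without the block, NDUFS5 was 0.014 after median-ratio scaling and 0.073 after quantile normalization, and with each library left out NDUFS5 ran from -0.023 to 0.0074, NDUFAF7 from -0.0093 to 0.17, NDUFA1 from -0.15 to 0.43, NDUFA11 from -0.0065 to 0.075 and NDUFA13 from -0.15 to 0.20. Genes called among all tested, 3773, ran from 2582 to 3799 and were 2781 without a filter. Over all 12576 genes tested the replicate numbers showed no pairing, with correlations of same-numbered deviations of 0.012, -0.0076 and -0.028. Correlations over all genes cannot show whether some members share a replicate effect. With the block 2977 genes and 6 members were called, which included NDUFB1 (-0.45, adjusted p = 0.00830) and NDUFS6 (-0.24, adjusted p = 0.0321). Of the 8 members called, 4 were shared with the block and 3 with the length and GC correction. TPM without counts gives no depth, and 3 libraries of 1 line per group limit the precision.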

Other observations

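The 38 NDUF pseudogene names left out of the member list had low values. Of these, 28 were at 0 TPM in all 6 libraries. The highest value of any was 5.08 TPM, that of NDUFA3P1 in DMSO replicate 1, where NDUFA3 stood at 21.8 TPM. In 0 of the 38 did every NEN library lie above every DMSO library.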
